A study of Mus musculus with 20 samples.

Results

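The 10 genes Vwf, Mal, Ache, Heph, Hexa, Ppp1r17, Greb1, Ggta1, Thbs4 and Fibp lie outside the duplicated region of Dp1Tyb mice and were selected on their RNA level, which was higher than in WT in hearts of both genotypes that carry the duplication. They are 10 of 48795 genes in the deposited table, and all 10 passed the filter on low values, a mean normalized count of at least 10, that left 15304 genes for testing. The data were mRNA libraries of 20 whole mouse hearts at E13.5, when the septa that divide the heart are still closing, from 10 WT, 5 Dp1Tyb and 5 Dp1TybDyrk1a+/+/- embryos on a C57BL/6J background. Dp1Tyb embryos model Down syndrome and carry an extra copy of the part of chromosome 16 from Lipi to Zbtb21, at 75337402 to 97763836 of GRCm39. Dp1TybDyrk1a+/+/- embryos carry the same duplication and a deletion allele of Dyrk1a, a protein kinase gene of that region, so that the number of functional Dyrk1a copies is that of WT. The study's methods describe this second genotype as a separate strain founded by a pup in which recombination had joined both alleles on 1 chromosome, and mutant and WT embryos as littermates. The labels do not say which WT heart came from which litter, so all 10 WT hearts served both comparisons and the comparisons share them. The study's captions give 5 hearts for its comparisons, so the pooled WT hearts may mix the controls of both strains. In the sample order, some WT hearts come just before the Dp1Tyb hearts and the rest just before the Dp1TybDyrk1a+/+/- hearts. Each comparison may therefore include WT hearts of the other strain.

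Many genes change in the duplication hearts without an extra copy of their own. Setting both duplication genotypes beside WT separates genes that differ from WT only while the third functional Dyrk1a copy is present from genes that differ with or without it. The 10 genes have unrelated jobs. Vwf encodes von Willebrand factor, the adhesive glycoprotein of endothelial cells and platelets, and Thbs4 encodes thrombospondin 4, a secreted matrix glycoprotein. Mal encodes a membrane proteolipid found in myelin and in the apical membrane of epithelia. Ache encodes acetylcholinesterase, which ends cholinergic signalling by splitting acetylcholine, and Heph encodes hephaestin, a copper ferroxidase that works with the iron exporter ferroportin. Hexa encodes the alpha subunit of lysosomal beta-hexosaminidase, which removes a sugar from GM2 ganglioside, and Ggta1 encodes the galactosyltransferase that adds terminal alpha-galactose to glycans. Ppp1r17 encodes a phosphatase inhibitor first known from Purkinje cells, Greb1 a cofactor of oestrogen receptor, and Fibp a protein that binds acidic fibroblast growth factor.

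The genes sit on 8 chromosomes and none on chromosome 16. On GRCm39, with the annotation of GENCODE M39, Vwf (ENSMUSG00000001930) spans 125523737 to 125663642 and Ppp1r17 spans 55989619 to 56009674 of chromosome 6. Mal spans 127475142 to 127498615 and Ggta1 spans 35290066 to 35354620 of chromosome 2. Ache spans 137285781 to 137292728 of chromosome 5, Hexa 59446818 to 59474021 of chromosome 9, Greb1 16720616 to 16851015 of chromosome 12, Thbs4 92888095 to 92931501 of chromosome 13, Fibp 5510622 to 5515085 of chromosome 19 and Heph 95498965 to 95621010 of chromosome X. In blastn searches of their transcripts, no match of at least 95% identity to a gene inside the duplicated region was found for any of the genes but Fibp, whose longest match was 132 bases, with Gm15965.

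RefSeq start-site windows on GRCm38.p6, each of 250 bases before and 50 bases after a start, were at hand for 7 of the 10 genes (Ggta1, Mal, Ache, Hexa, Greb1, Thbs4 and Fibp), with 2 starts for Greb1. The 250 bases before the start are shown, 5′ to 3′ on the strand of the gene, for Hexa and Ache, whose levels differed most clearly between the duplication genotypes, and for Ggta1 and Thbs4, for which the interval of that difference includes 0. Capitals mark matches on either strand to the GC box GGGCGG, the CCAAT box CCAAT, the TATA box TATAAA, the E-box CACGTG, and the E2F site TTTCCCGC, and overlapping GC boxes run together. The stretches lie at chr9:59539290-59539539 on the plus strand, chr5:137288004-137288253 on the plus strand, chr2:35461450-35461699 on the minus strand and chr13:92794819-92795068 on the minus strand.
Hexa: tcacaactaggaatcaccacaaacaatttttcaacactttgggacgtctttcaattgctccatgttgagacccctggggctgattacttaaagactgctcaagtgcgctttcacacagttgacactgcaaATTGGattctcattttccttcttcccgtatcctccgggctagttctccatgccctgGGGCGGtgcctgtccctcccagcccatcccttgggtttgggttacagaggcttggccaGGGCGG
Ache: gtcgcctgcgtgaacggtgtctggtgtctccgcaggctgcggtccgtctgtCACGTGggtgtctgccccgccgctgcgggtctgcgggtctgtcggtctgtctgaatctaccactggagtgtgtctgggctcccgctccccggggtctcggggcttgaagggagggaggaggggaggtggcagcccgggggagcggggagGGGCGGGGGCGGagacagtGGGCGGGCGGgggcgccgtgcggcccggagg
Ggta1: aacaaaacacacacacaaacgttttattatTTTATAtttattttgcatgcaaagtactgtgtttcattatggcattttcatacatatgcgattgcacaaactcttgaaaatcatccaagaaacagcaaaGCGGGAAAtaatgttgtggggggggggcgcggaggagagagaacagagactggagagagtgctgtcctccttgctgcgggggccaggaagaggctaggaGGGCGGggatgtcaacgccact
Thbs4: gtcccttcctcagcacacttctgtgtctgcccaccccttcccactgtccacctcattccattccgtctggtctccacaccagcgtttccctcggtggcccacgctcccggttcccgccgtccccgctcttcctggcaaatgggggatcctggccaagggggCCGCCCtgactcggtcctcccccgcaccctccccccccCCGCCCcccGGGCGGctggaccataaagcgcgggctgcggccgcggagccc

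Among all 32851 windows of 300 bases in the RefSeq table, 35.7% held a GC box, and 4 of the 7 genes (Ache, Ggta1, Hexa and Thbs4) did. A CCAAT box was in the windows of Hexa and Greb1, against 37.4% of all windows. The ETS site CCGGAAG was in the window of Fibp, against 8.86% of all. The E-box was in the window of Ache, against 7.15% of all. The window of Ggta1 held the TATA box, against 13.6% of all, and the E2F site, against 1.07%. The TATA box match of Ggta1 was on the opposite strand and began at position -220 from the start. The core CTCGCGAG of the palindrome found at promoters bound by DYRK1A was in 0 of the 7 genes' windows and in 0.919% of all windows, and the CRE TGACGTCA and the GATA site AGATAA were also in 0 of the 7. The CHR element TTTGAA was in 1 of the 2 Greb1 windows, against 17.9% of all. The GC content of the 8 windows ran from 46.3% (the lower-GC Greb1 window) to 74.0% (Ache), beside a median of 52.7% over all windows. These are descriptions of letters in short windows.

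All values are log2 normalized counts as deposited. Depth is unknown for all libraries, because read totals were not used here. Differences between groups are differences of log2 values. The values resemble a regularized log, which pulls weakly expressed genes towards their mean, so differences of low genes may be understated. Divided by exon length, normalized counts per kb in WT hearts were highest for Thbs4 at 402 and Ggta1 at 254, followed by Hexa at 198, Heph at 91.3, Fibp at 77.9, Ppp1r17 at 70.8, Vwf at 69.3, Ache at 39.7, Mal at 24.1 and Greb1 at 9.32. In whole hearts, a change in the number of cells that express a gene and a change in RNA per cell cannot be told apart. Markers of cardiomyocytes (Tnnt2, Actc1 and others, 8 of 8 tested) had the highest summed level, with a log2 sum of 18.64 to 18.98 in WT hearts. Dyrk1a RNA averaged 11.37 in WT, 11.69 in Dp1Tyb and 11.76 in Dp1TybDyrk1a+/+/- hearts, so the level of the whole gene does not check the deletion allele. The study reports that its RNA sequencing showed the loss of exons from that allele. Libraries were sequenced on lanes 3, 6 and 7, which held 4, 4 and 2 WT, 2, 2 and 1 Dp1Tyb, and 1, 1 and 3 Dp1TybDyrk1a+/+/- hearts. The level of Xist, the RNA of the inactive X chromosome in females, had a median of 8.09 in WT, 13.07 in Dp1Tyb and 7.995 in Dp1TybDyrk1a+/+/- hearts and ranged beyond 13 in each genotype, so both sexes were present in each in unequal shares. The part of sex in the differences between genotypes was examined only by a fit with Xist as a covariate.

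Genes were called by limma at P-values adjusted after Benjamini and Hochberg of under 0.05. In this way 277 of the 15304 tested genes (1.81%) were higher in Dp1Tyb than in WT and 96 (0.627%) were higher in Dp1TybDyrk1a+/+/- than in WT. Outside the duplicated region, 19 of 15072 tested genes (0.126%) were higher than WT in both comparisons. All 10 genes described here are among the 19, as their selection requires. With heart weights 69 genes passed in both. With lane as a covariate 10 genes passed in both and 6 of the members did, and without any 1 heart the count was 11 to 30 (lowest without Dp1TybDyrk1a+/+/- heart A18, highest without A15), with 6 to 9 of the members. The 19 made up 9.27% of the 205 such genes higher in Dp1Tyb and 70.4% of the 27 higher in Dp1TybDyrk1a+/+/-. Just inside the threshold, the larger of the 2 adjusted P-values was 0.0468 for Thbs4, 0.0432 for Greb1 and 0.0423 for Fibp, and just outside it was 0.0557 for Clec4g, 0.0738 for Rnf17 and 0.0758 for Itgb8.

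**Figure D1:**
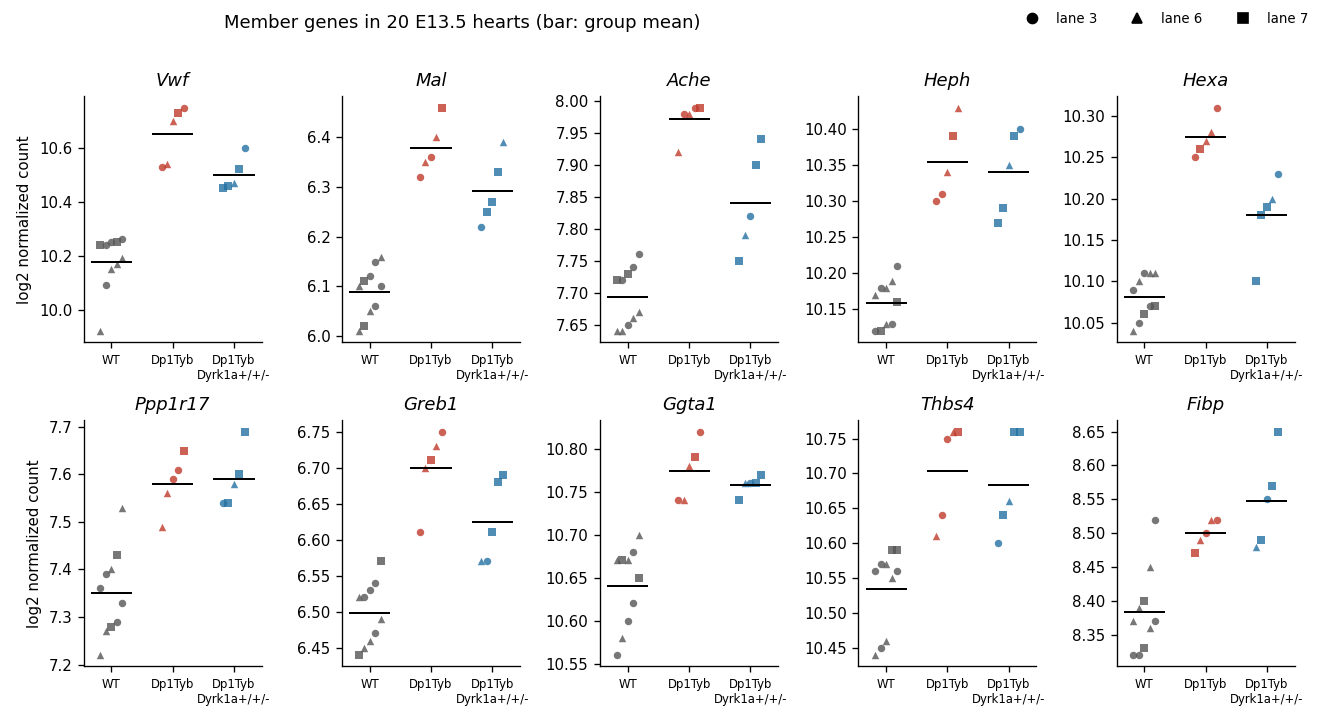
Log2 normalized count of each of the 10 genes in each of the 20 hearts, by genotype, with the marker shape giving the sequencing lane and the bar the group mean (each panel has its own vertical axis, which does not start at 0). In the panels of Vwf, Mal, Heph, Ggta1 and Thbs4 all 10 duplication hearts lie above all 10 WT hearts.

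Of the 10 genes, Vwf had the largest difference from WT in both genotypes. Over the 10 WT hearts it ran from 9.92 through a median of 10.21 to 10.26. The Dp1Tyb hearts were at 10.53, 10.54, 10.70, 10.73 and 10.75, and the Dp1TybDyrk1a+/+/- hearts at 10.45, 10.46, 10.47, 10.52 and 10.60. All 10 duplication hearts were above the highest WT heart, and the Dp1TybDyrk1a+/+/- hearts overlapped only the lower part of the Dp1Tyb range. The fitted difference from WT was 0.47 (SE 0.05), a 1.39-fold level, in Dp1Tyb and 0.33 (SE 0.05), a 1.25-fold level, in Dp1TybDyrk1a+/+/-. One WT heart, A10, was low at 9.92, and without it the differences were 0.45 and 0.30.

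Thbs4, the other secreted glycoprotein, ran from 10.44 through 10.56 to 10.59 in WT. Its Dp1Tyb values were 10.61, 10.64, 10.75, 10.76 and 10.76, and its Dp1TybDyrk1a+/+/- values were 10.60, 10.64, 10.66, 10.76 and 10.76. The lowest duplication heart exceeded the highest WT heart by a narrow margin, and the 5 hearts of each duplication genotype covered nearly the same range. The differences from WT were 0.17 (SE 0.03) and 0.15 (SE 0.03).

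Mal, the membrane proteolipid, ran from 6.01 through 6.10 to 6.16 in WT. It was at 6.32, 6.35, 6.36, 6.40 and 6.46 in Dp1Tyb and at 6.22, 6.25, 6.27, 6.33 and 6.39 in Dp1TybDyrk1a+/+/- hearts. The groups of duplication hearts overlapped each other and neither overlapped WT. The differences from WT were 0.29 (SE 0.03) and 0.21 (SE 0.03), folds of 1.22 and 1.15.

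Heph, the ferroxidase gene and the only X-linked one of the 10, ran from 10.12 through 10.17 to 10.21 in WT. It was at 10.30, 10.31, 10.34, 10.39 and 10.43 in Dp1Tyb and at 10.27, 10.29, 10.35, 10.39 and 10.40 in Dp1TybDyrk1a+/+/- hearts. No duplication heart overlapped WT, and the duplication genotypes overlapped throughout. The differences from WT were 0.20 (SE 0.03) and 0.18 (SE 0.03). Heph passed the threshold against WT in both comparisons in all 30 alternative settings, including the fit with Xist as a covariate. It was selected on these same comparisons in these hearts, so the refits are no independent support.

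Ggta1, the galactosyltransferase gene, was the tightest in the Dp1TybDyrk1a+/+/- hearts, at 10.74, 10.76, 10.76, 10.76 and 10.77. Its Dp1Tyb values were 10.74, 10.74, 10.78, 10.79 and 10.82, and its WT values ran from 10.56 through 10.66 to 10.70. All duplication hearts were above WT. The differences from WT were 0.13 (SE 0.02) and 0.12 (SE 0.02), about 1.1-fold.

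Hexa and Ache had the same shape, with Dp1Tyb hearts clearly apart from WT and Dp1TybDyrk1a+/+/- hearts between them. Hexa ran from 10.04 through 10.08 to 10.11 in WT, was at 10.25, 10.26, 10.27, 10.28 and 10.31 in Dp1Tyb, and at 10.10, 10.18, 10.19, 10.20 and 10.23 in Dp1TybDyrk1a+/+/- hearts. The 5 Dp1Tyb hearts overlapped neither other group, and 1 Dp1TybDyrk1a+/+/- heart fell within the WT range. The differences of Hexa from WT were 0.19 (SE 0.02) and 0.10 (SE 0.02).

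Ache ran from 7.64 through 7.69 to 7.76 in WT, was at 7.92, 7.98, 7.98, 7.99 and 7.99 in Dp1Tyb, and at 7.75, 7.79, 7.82, 7.90 and 7.94 in Dp1TybDyrk1a+/+/- hearts. The Dp1Tyb hearts were all above WT, 1 Dp1TybDyrk1a+/+/- heart lay inside the WT range, and 4 of 5 Dp1Tyb hearts were above all Dp1TybDyrk1a+/+/- hearts. The differences of Ache from WT were 0.28 (SE 0.03) and 0.15 (SE 0.03).

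Greb1, the hormone receptor cofactor, was the weakest per length and followed a similar order of means. It ran from 6.44 through 6.51 to 6.57 in WT, was at 6.61, 6.70, 6.71, 6.73 and 6.75 in Dp1Tyb, and at 6.57, 6.57, 6.61, 6.68 and 6.69 in Dp1TybDyrk1a+/+/- hearts. The 5 Dp1Tyb hearts were above WT, and the lower Dp1TybDyrk1a+/+/- hearts met the top of the WT range. The differences from WT were 0.20 (SE 0.03) and 0.12 (SE 0.03).

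Ppp1r17 and Fibp were at least as high in Dp1TybDyrk1a+/+/- as in Dp1Tyb hearts by their means. Ppp1r17 ran from 7.22 through 7.34 to 7.53 in WT, was at 7.49, 7.56, 7.59, 7.61 and 7.65 in Dp1Tyb, and at 7.54, 7.54, 7.58, 7.60 and 7.69 in Dp1TybDyrk1a+/+/- hearts. A single WT heart at 7.53 reached into the Dp1Tyb range. Its differences from WT were 0.23 (SE 0.04) and 0.24 (SE 0.04).

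Fibp ran from 8.32 through 8.37 to 8.52 in WT, was at 8.47, 8.49, 8.50, 8.52 and 8.52 in Dp1Tyb, and at 8.48, 8.49, 8.55, 8.57 and 8.65 in Dp1TybDyrk1a+/+/- hearts. Its groups overlapped the most, since the highest WT heart stood above 3 of 5 Dp1Tyb hearts. The differences from WT were 0.12 (SE 0.03) and 0.17 (SE 0.03).

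**Figure D2:**
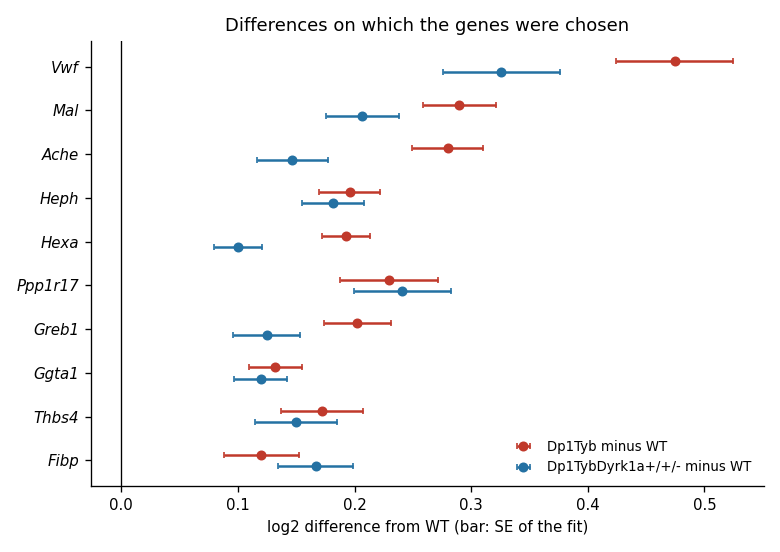
Log2 difference from WT (horizontal axis, bars give the SE of the fit) for each of the 10 genes in Dp1Tyb (red) and Dp1TybDyrk1a+/+/- (blue) hearts, the differences on which the genes were chosen. Vwf reaches 0.47 and 0.33, and the points of Heph, Ggta1, Thbs4 and Ppp1r17 nearly coincide.

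Over the 10 genes, the median difference from WT was 0.199 in Dp1Tyb and 0.158 in Dp1TybDyrk1a+/+/- hearts, beside -0.0022 and -0.0033 over all tested genes outside the duplicated region, which the selection fixes. All 10 duplication hearts exceeded all 10 WT hearts in 5 of the 10 genes, and in 11 of the 15072 tested genes outside the region (0.073%). All 5 Dp1Tyb hearts exceeded all WT hearts in 8 of the 10 and in 1.08% of the tested genes outside the region, and all 5 Dp1TybDyrk1a+/+/- hearts did so in 6 of the 10 and in 0.153%. The selection used these same values, so nothing is read from these counts. Within each of the 3 lanes the mean difference from WT was above 0 for every gene in both comparisons, 30 of 30 differences in each, which the selection in these same hearts nearly fixes. The residual SD between hearts was above the median of all tested genes, 0.0592, in 3 of the 10 genes, Vwf (0.0978), Ppp1r17 (0.0782) and Thbs4 (0.0653).

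The comparison of Dp1Tyb with Dp1TybDyrk1a+/+/- hearts was not itself a criterion of selection. It uses the same duplication hearts as the comparisons with WT that were, so the selection shapes its counts and P-values for these genes. The genotypes differ in the third functional Dyrk1a copy, but they also come from separate strains and litters. In these hearts they also differ in their shares of lanes and sexes. A part of Dyrk1a dose and a part of strain or litter cannot be told apart in this comparison. By limma, 178 of the 15304 tested genes (1.16%) passed the threshold in this comparison in either direction, and 0 of the 10 did. At an unadjusted P-value under 0.05 there were 5 of the 10, and 2838 genes (18.5%) among all tested. These 5 were Vwf, Mal, Ache, Hexa and Greb1, all higher in Dp1Tyb hearts. The difference was above 0 in 8 of the 10 genes, as in 52.2% of all tested genes outside the region, and its median over the 10 was 0.050, beside 0.0030 over those genes.

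Hexa and Ache came closest to the threshold. Hexa was higher in Dp1Tyb by 0.093 (95% interval 0.043 to 0.143, adjusted P-value 0.0550), with all 5 Dp1Tyb hearts above all 5 Dp1TybDyrk1a+/+/- hearts, and an exact two-sided permutation test gave P = 0.00794, the smallest that 5 against 5 hearts can give. Ache was higher by 0.133 (0.060 to 0.206, adjusted P-value 0.0605, exact permutation P = 0.0159). Within lanes 3, 6 and 7 the difference was 0.051, 0.072 and 0.099 for Hexa and 0.172, 0.164 and 0.125 for Ache. Hexa passed the threshold in 5 of 30 alternative settings, with adjusted P-values from 0.0174 to 0.202, and Ache in 4 of 30, from 0.0401 to 0.215. Without WT heart A10, both passed, at 0.0419 and 0.0451. Hexa also passed without Dp1TybDyrk1a+/+/- heart A14, at 0.0371, and Ache without A18, at 0.0401.

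Vwf was higher in Dp1Tyb by 0.149 (0.028 to 0.269, adjusted P-value 0.177, exact permutation P = 0.0397), Mal by 0.083 (0.008 to 0.158, 0.221 and 0.0794) and Greb1 by 0.078 (0.009 to 0.147, 0.215 and 0.0556). The within-lane differences of Vwf were 0.043, 0.149 and 0.253, and those of Mal included a value of -0.020 in lane 6. These 3 genes passed the threshold in 0 of the alternative settings.

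The other 5 genes gave intervals that include 0. For Heph the difference was 0.014 (-0.049 to 0.077), for Ggta1 0.013 (-0.042 to 0.068) and for Thbs4 0.022 (-0.062 to 0.106). For Ppp1r17 it was -0.011 (-0.111 to 0.089) and for Fibp -0.047 (-0.123 to 0.030). Their adjusted P-values lay between 0.506 and 0.922. In these 5 genes a difference between the duplication genotypes was not detectable with 5 hearts each.

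**Figure D3:**
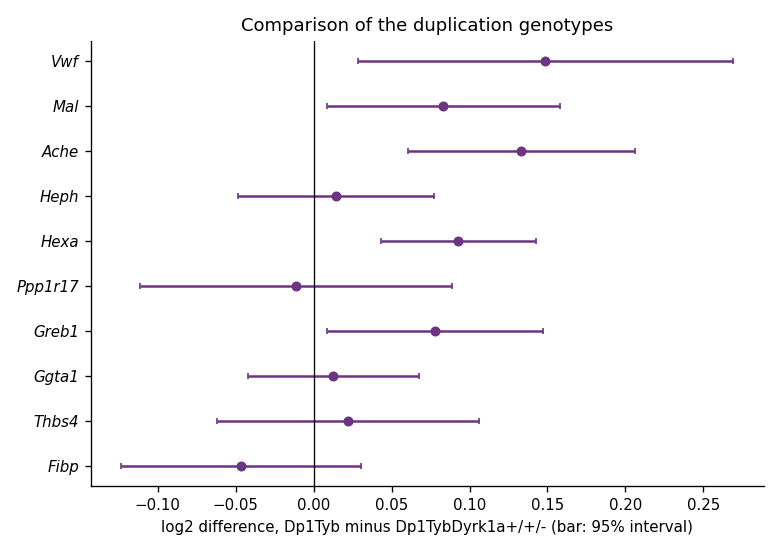
Log2 difference between Dp1Tyb and Dp1TybDyrk1a+/+/- hearts (horizontal axis) with its 95% interval for each of the 10 genes. The intervals of Vwf, Mal, Ache, Hexa and Greb1 lie above 0 and those of the other 5 genes include 0, before adjustment for the number of genes tested.

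Whether the 10 genes also move together within 1 genotype was examined over the 10 WT hearts, which the selection did not rank. These hearts may mix litters of both strains. Co-variation between hearts cannot be told apart here from a part of strain or litter, which was not tested. Of the 45 pairs, 23 had a positive Pearson's r, and the median r was 0.012, with a range from -0.715 to 0.755. At an unadjusted permutation P-value under 0.05 there were 3 pairs by Pearson's r and 4 by Spearman's rho. After adjustment over the 45 pairs, 0 pairs passed by Pearson's r and 1 by Spearman's rho.

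That pair was Vwf and Ache, with r = 0.755 (permutation P = 0.00244, adjusted 0.110) and rho = 0.939 (permutation P = 0.00016, adjusted 0.0072), and r was 0.933 without the 2 hearts farthest from the Vwf median. With 4, 4 and 2 WT hearts in lanes 3, 6 and 7, no lane was tested alone. With both genes centred on their lane means, r was 0.611 (permutation within lanes, P = 0.0157), an alternative chosen after the data were seen. The lowest r was that of Vwf and Fibp, -0.715 (permutation P = 0.0307, adjusted 0.461), with rho = -0.782 (permutation P = 0.0106, adjusted 0.159). Over all 20 hearts centred on their genotype means, r of Vwf and Ache was 0.382 (permutation P = 0.0954, adjusted 0.604), the most negative pair was Heph and Thbs4 at -0.631 (permutation P = 0.00384, adjusted 0.173), and 0 of 45 pairs passed.

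**Figure D4:**
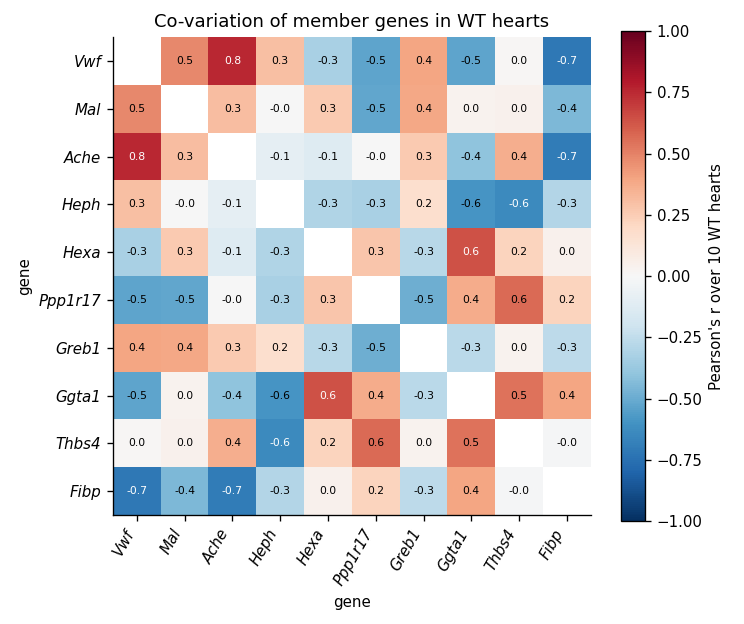
Pearson's r between the 10 genes over the 10 WT hearts, from -1 (blue) to 1 (red), with r printed in each cell to 1 decimal. Vwf and Ache form the reddest cell (0.755), the cells of Vwf and Ache with Fibp are the bluest (-0.715 and -0.701), and the other cells lie between.

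Among all tested genes, those whose genotype-centred values over the 20 hearts were most like a member by Pearson's r were other genes than the members. For Vwf they were Dnmt3a (0.933), a DNA methyltransferase gene, the fatty acid synthase gene Fasn (0.914) and Tnks (0.894). For Ggta1 they were Ndrg2 (0.828), Trp53inp2 (0.825) and Prkag2 (0.820). For Ache they were Rad54l (0.817), Efr3b (0.812) and Coro7 (0.805), for Hexa Ccdc28b (0.798), Klf15 (0.790) and Cd99l2 (0.787), and for Fibp Gm43737 (0.853), Ube2e2 and Socs2 (0.813). The best match of each remaining gene was Mzt2 for Heph (0.771), Rem1 for Thbs4 (0.807), Ranbp6 for Greb1 (0.787), Dmrta1 for Ppp1r17 (0.778) and Nat8f1 for Mal (0.728). These are the highest correlations over all tested genes in 20 shared libraries and are given as a description.

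The other 9 genes outside the duplicated region that were higher than WT in both comparisons include genes expressed by endothelial cells, as Vwf is. Mmrn2 encodes multimerin 2 of the vessel wall matrix, and its differences from WT were 0.19 in Dp1Tyb and 0.15 in Dp1TybDyrk1a+/+/- hearts. Clec14a, which encodes an endothelial lectin-like receptor that binds multimerin 2, had 0.13 and 0.14, and Calcrl, the receptor gene for adrenomedullin and calcitonin gene-related peptide, had 0.19 and 0.13. Entpd1, which encodes the ectonucleotidase CD39 of endothelial and immune cells, had 0.25 and 0.23, and Lgals9, which encodes galectin 9, had 0.25 and 0.25. The rest were Zfp979 (0.14 and 0.14), Prickle2 (0.11 and 0.10), Eif5a2 (0.08 and 0.10) and the processed pseudogene Gm7334 (1.03 and 1.28), which shares 756 bases at 100% identity with Btg3 inside the duplicated region, so that its values are uncertain.

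Of the markers listed for vascular endothelium (Pecam1, Cdh5, Kdr, Emcn, Tie1, Fabp4 and Cldn5), 0 of 7 passed the threshold by limma in any of the 3 comparisons. At an unadjusted P-value under 0.05, 1 was higher and 1 lower than WT in Dp1TybDyrk1a+/+/- hearts, and 1 was lower in Dp1Tyb hearts. In each genotype 5 of the 7 were above WT. Fabp4 (-0.24 in Dp1Tyb and -0.19 in Dp1TybDyrk1a+/+/-) and Cldn5 (-0.031 and -0.13) were below. The list is not specific to vessels, since the study gated endocardial cells by CD31, the product of Pecam1. The log2 of the summed level of the 7 genes ran from 13.78 to 13.94 in WT, 13.83 to 13.95 in Dp1Tyb and 13.89 to 13.99 in Dp1TybDyrk1a+/+/- hearts, so the groups overlapped. The study's single-cell data, with 1 Dp1Tyb heart, gave larger fractions of vascular endothelial cells and fibroblasts in Dp1Tyb than in WT. They gave smaller fractions of ventricular and atrial cardiomyocytes. The study reports the cardiomyocyte and fibroblast changes as reversed in Dp1TybDyrk1a+/+/- hearts. Megakaryocyte and platelet markers, the other cells that make von Willebrand factor, had 0 of 6 past the threshold (1 higher in Dp1Tyb and 1 lower in Dp1TybDyrk1a+/+/- than WT at an unadjusted P-value under 0.05), with a summed level of 8.54 to 8.88, 8.69 to 8.86 and 8.57 to 8.79. Of the 61 marker genes tested for 11 cell types, 1 passed against WT, the endocardial gene Cytl1, which was higher in Dp1Tyb by 0.15 (SE 0.03, adjusted P-value 0.00266). At an unadjusted P-value under 0.05, 9 markers were higher and 4 lower than WT in Dp1Tyb, and 3 higher and 4 lower in Dp1TybDyrk1a+/+/- hearts. Fibroblast and cushion mesenchyme markers had 0 of 7 past the threshold, were above 0 in 7 of 7 in Dp1Tyb (3 at an unadjusted P-value under 0.05, median 0.097) and had a median of -0.0055 in Dp1TybDyrk1a+/+/- hearts, with summed levels of 16.26 to 16.75 in WT, 16.59 to 16.80 in Dp1Tyb and 16.33 to 16.81 in Dp1TybDyrk1a+/+/- hearts. The markers' part in the differences of Vwf and of the other genes was not tested.

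Genes of the pathways in which the 10 take part were also followed, with the members left out. Of 92 tested genes in 10 lists, 6 were higher and 1 lower than WT in Dp1Tyb, and 1 was higher and 1 lower in Dp1TybDyrk1a+/+/-. The gene higher in Dp1TybDyrk1a+/+/- was Nrip1, which lies inside the duplicated region and is also counted among those higher in Dp1Tyb. Over all tested genes, 3.08% passed in either direction in the first comparison and 0.712% in the second. In Dp1Tyb against Dp1TybDyrk1a+/+/-, 0 of 92 passed by limma, and at an unadjusted P-value under 0.05 there were 17 higher and 7 lower.

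Among the 11 genes of the lysosomal list reported here, 3 were higher in Dp1Tyb than in WT. They were Ctsd, the gene of cathepsin D (difference 0.12, adjusted P-value 0.0352), Arsa, the gene of arylsulfatase A (0.12, 0.0489), and Glb1, the gene of beta-galactosidase, which acts before hexosaminidase in ganglioside breakdown (0.11, 0.0246). In Dp1TybDyrk1a+/+/- hearts the same 3 differed from WT by -0.016, -0.029 and 0.00077, and none passed. Between the duplication genotypes they differed by 0.139, 0.147 and 0.105, with adjusted P-values of 0.0594, 0.0529 and 0.0779, so that a difference in response was not shown by this fit. In this comparison 2 of the 11 passed with a minimum count of 100, without trend or without WT heart A10, 3 passed with heart weights, and 1 passed without A14 or without A20. Gm2a, the gene of the GM2 activator, was at 0.082 and 0.070 without passing in either. Hexa itself was above WT in both genotypes, the property for which it was chosen. The lysosomal calls were lost, 0 of 11, with Xist as a covariate (adjusted P-values 0.0620 to 0.101) and without any 1 of the Dp1Tyb hearts A12, A4 or A6. A single gene passed without the filter, without A7 or without any 1 of the WT hearts A13, A16 and A19, and 2 passed without any 1 of A3, A5, A8, A9, A10, A11, A14, A18 and A20, while the 3 differences stayed between 0.0965 and 0.137 whichever heart was left out.

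**Figure D5:**
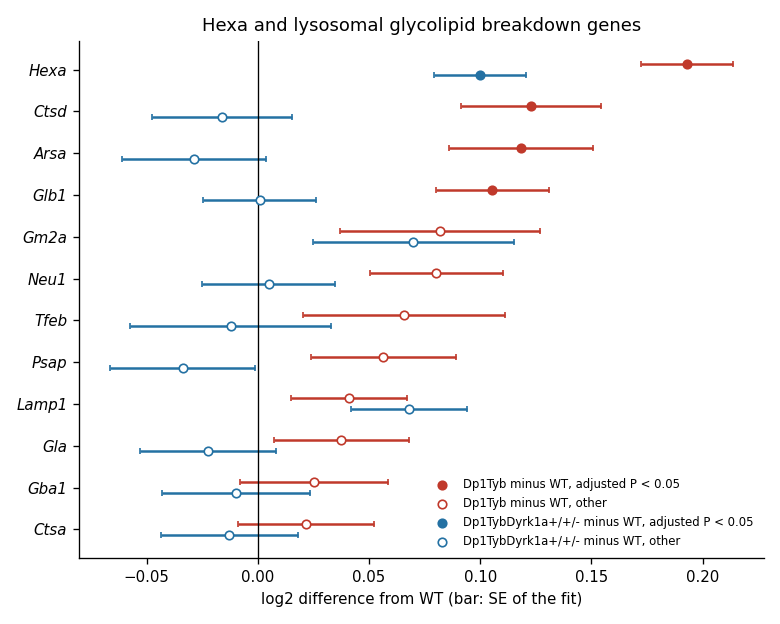
Log2 difference from WT (horizontal axis, bars give the SE of the fit) of Hexa and the 11 reported genes of the lysosomal list in Dp1Tyb (red) and Dp1TybDyrk1a+/+/- (blue) hearts, with filled points for an adjusted P-value under 0.05. All 11 red points of the list lie above 0 and 3 of them are filled, 7 of its 11 blue points lie below 0, and Hexa is the only gene shown with both points filled.

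Among the partners of the other members, few passed. Itgav, an integrin subunit gene of the thrombospondin list, was higher in Dp1Tyb than in WT by 0.15 (adjusted P-value 0.0194) and Thbs1, Thbs2 and Thbs3 were at 0.084, 0.083 and 0.087 without passing. Chrm2, the gene of the main muscarinic receptor of the heart, was lower in Dp1Tyb by 0.20 (difference -0.20, adjusted P-value 0.0352) and at 0.0095 in Dp1TybDyrk1a+/+/- hearts. Bche, the gene of the related butyrylcholinesterase, was at -0.019 and 0.076, and Colq, which anchors acetylcholinesterase, at 0.12 and 0.054. Slc40a1, which encodes the iron exporter ferroportin that hephaestin assists, was lower than WT in Dp1TybDyrk1a+/+/- hearts by 0.15 (difference -0.155, adjusted P-value 0.0351) and at -0.040 in Dp1Tyb hearts, while Heph was above WT in both. Nrip1, a corepressor gene of oestrogen receptor, passed in both at 0.27 and 0.33, and it lies inside the duplicated region. The lists on von Willebrand factor (11 tested), the MAL family and myelin (9), terminal galactose glycans (5), FGF ligands and receptors (8) and phosphatases with their inhibitors (11) had 0 genes past the threshold in all 3 comparisons by limma. At an unadjusted P-value under 0.05, these 5 lists together had 7 genes higher and 3 lower than WT in Dp1Tyb, 2 higher and 3 lower in Dp1TybDyrk1a+/+/-, and 7 higher and 4 lower in Dp1Tyb than in Dp1TybDyrk1a+/+/- hearts. The Chrm2 call was lost without any 1 of WT hearts A1, A11, A13 and A20 or Dp1Tyb hearts A3, A6, A7 and A12 (adjusted P-values 0.0505 to 0.123), and the Itgav call without A7 or A12 (0.0689 and 0.0760). With Xist as a covariate neither passed (0.100 for Chrm2 and 0.0832 for Itgav), and Chrm2 did not pass without the filter (0.0664). The Slc40a1 call was lost with lane as a covariate, without the filter, with only the 2 genotypes compared and without any 1 of WT hearts A1, A2, A8, A13, A16, A19 and A20 or Dp1TybDyrk1a+/+/- hearts A14, A15 and A17 (0.0575 to 0.108).

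The chromosomal neighbours of the 10 genes were also examined. Of the 20 nearest tested genes, 1 passed in Dp1Tyb against WT (3.08% of all tested genes did), Ufsp1, which encodes a UFM1 protease and starts 162 bases beyond the annotated end of Ache on the same strand. Ufsp1 was higher in Dp1Tyb by 0.14 (SE 0.02, adjusted P-value 0.00149), and at 0.087 (adjusted P-value 0.167) in Dp1TybDyrk1a+/+/- hearts. By limma, 0 of the 20 passed in Dp1TybDyrk1a+/+/- against WT (at an unadjusted P-value under 0.05, 3 were higher and 1 lower) and 0 between the duplication genotypes (1 lower). The median difference from WT over the 20 neighbours was 0.016 in Dp1Tyb and 0.014 in Dp1TybDyrk1a+/+/-. Of 141 tested genes starting within 500 kb of a member, 2 were higher (Ufsp1 and Pcolce, both near Ache) and 2 lower (Ncapd2 near Vwf and Bub1 near Mal) in Dp1Tyb than in WT, and 0 passed in Dp1TybDyrk1a+/+/- against WT, where 0.712% of all tested genes did. Of the annotated genes that overlap a member, Rpl17-ps8 within Heph was the only one tested, and it was at -0.079 and 0.19 without passing.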

How the data were processed

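Hearts were grouped by the genotype labels. The table deposited by the authors holds normalized counts on a log2 scale, and the submitters' processing notes name Trimmomatic 0.36, STAR 2.5.2a, RSEM 1.2.31, DESeq2 and build GRCm38. The transformation and strand setting are not given in the sources used here. The values resemble a regularized log, which shrinks differences of weakly expressed genes. The authors tested with DESeq2, which needs counts. Here limma 3.58.1 in R 4.3.3 was fitted to all 20 hearts (lmFit with a mean for each genotype, then eBayes with trend), and P-values were adjusted by Benjamini-Hochberg over the 15304 genes whose normalized count averaged 10 or more. It was tested on simulated data. Columns of no sample numbered 0. GENCODE M39 named 44565 genes. Pairs of genes were tested by 100000 permutations, and sequences were compared with blastn 2.17.0. Python 3.11.15, numpy 2.4.6, pandas 2.3.3 and scipy 1.17.1 were used. The members, lists and tests were chosen with earlier results of these data known. Genes named were drawn from the members, list genes, neighbours, the 3 most alike genes per member and the other genes of the same pattern. The list genes named are those past the threshold and some others. Of these, Colq, Gm2a, Thbs2 and Thbs3 were not the most abundant of their lists and were picked outside a fixed rule. Alternatives were other filters, normalizations, limma settings, covariates and each heart left out. Results for 2 list genes are not reported here.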

Additional observations from a re-analysis of the deposited data

Results flagged for a closer look

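In 2 of 30 groups (10 genes in 3 genotypes) a single heart stood apart from the others of its group by Dixon's criterion, and chance alone gives about 1 in 20. For Vwf, WT heart A10 was the lowest at 9.92, with the next WT heart at 10.09, a gap that was 0.493 of the group's range. Without A10 the WT mean of Vwf was 10.20 ± 0.059 (SD, n = 9), and the differences from WT were 0.45 in Dp1Tyb and 0.30 in Dp1TybDyrk1a+/+/- hearts. With Vwf counted, A10 was the lowest WT heart in 3 of the 10 genes, and it was the highest in 2. For Ache, Dp1Tyb heart A6 was the lowest at 7.92, with the next at 7.98, a gap that was 0.822 of the range. Without A6 the difference of Ache from WT in Dp1Tyb was 0.29, and that from Dp1TybDyrk1a+/+/- was 0.147 (limma adjusted P-value 0.0758, range 0.0401 to 0.215 over 30 alternatives). The cause of either heart's position was not tested.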

How the results depend on the processing

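All 10 genes stayed above WT in both comparisons in every setting tried, each a refit of the hearts in which they were selected. The number called in both, 10, was 6 with lane as a covariate or only the 2 genotypes compared, 7 with Xist as a covariate, quantile normalization or no filter, and 6 to 9 without 1 heart, with 6 without Dp1TybDyrk1a+/+/- heart A17 or A18. The calls lost were of Fibp in Dp1Tyb (past the threshold in 10 of 30 settings) and of Greb1 (10 of 29), Thbs4 (10 of 30), Ache (26 of 30) and Hexa (26 of 30) in Dp1TybDyrk1a+/+/- hearts. The count of 19 genes higher in both was 69 with heart weights, 10 with lane, and 11 to 30 without 1 heart (12 without A13, A14 or A17, 11 without A18, 30 without A15). Between the duplication genotypes, members called (0) were 2 with a minimum count of 100 or without trend, 1 with heart weights, and 0 to 2 without 1 heart (2 without A10, 1 without A14 or A18). Pathway genes called in Dp1Tyb against WT (7) were 3 without a filter, 13 with heart weights, 1 with Xist, 12 with only the 2 genotypes, and 1 to 12 without 1 heart (1 without A12, 2 without A6, 3 without A4 or A13, 4 without A7, A19 or A20, 12 without A15). In Dp1TybDyrk1a+/+/- against WT (2) they were 1 without a filter, with lane or with only the 2 genotypes, and 1 to 2 without 1 heart (1, with Slc40a1 lost, without A1, A2, A8, A13, A14, A15, A16, A17, A19 or A20). Between the duplication genotypes (0) they were 2 with a minimum of 100 or without trend, 15 with heart weights, and 0 to 4 without 1 heart (4 without A10, 1 without A14 or A20). Nearest neighbours called in Dp1Tyb (1) were 0 with a minimum of 100, which leaves Ufsp1 untested, and in Dp1TybDyrk1a+/+/- (0) 1 with heart weights. Other causes were not tested. Pairs correlated in WT hearts by Pearson's r stayed at 0 in the settings tried. No paired analysis was possible because the labels give the genotypes no shared replicate numbers and do not tie hearts to litters. With read totals not analysed here, precision rests on the spread between hearts.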
